A study of Mus musculus with 6 samples.

Results

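The genes described here are the receptors and synthesis enzymes of the leukotrienes: the cysteinyl leukotriene receptor genes Cysltr1 and Cysltr2, the leukotriene B4 receptor genes Ltb4r1 and Ltb4r2, and the enzyme genes Alox5, Alox5ap, Lta4h and Ltc4s. They were taken from the pathway by name, 8 in all, and 7 of them had a probe set assigned to them alone, out of 19938 genes so measured. Among several such probe sets of a gene the brightest on average over the 6 arrays was to be used, but each of these 7 genes had exactly 1, and Ltb4r2 was not analysed here. The family was put forward because a difference of Cysltr1 between the groups was already known, so the values of Cysltr1 are given as a description, with no test, although Cysltr1 is among the genes in the counts over all genes.

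The arrays measured total RNA of pre-B cells, B cell precursors, that had been transformed with BCR-ABL1, the fusion kinase of Philadelphia chromosome-positive acute lymphoblastic leukaemia. All cells were of the mouse strain 129P2/OlaHsd and carried the genotype Ptpn6 +/fl, that is 1 floxed and 1 unfloxed copy of the gene of the tyrosine phosphatase SHP-1. The cells of 3 arrays had received the vector PMIP-CRE-ERT2, which carries a Cre recombinase that tamoxifen activates, and those of the other 3 the vector PMIP-ERT2, which carries the receptor domain without Cre. Both were puromycin resistant and had been kept for 2 days in 0.5 micromolar 4OH-Tamoxifen. The unfloxed allele stays intact in both groups by this genotype, and both groups received the drug, so the vector was the labelled difference. The question, as the series title has it, was the role of Ptpn6 in these cells. The labels do not say whether the samples of a group were separate cultures, so errors and p-values cover the spread between these samples only, which may be technical.

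Leukotrienes are lipid mediators made from arachidonic acid. The enzyme 5-lipoxygenase, helped by its activating protein, makes the unstable leukotriene A4, which is then hydrolysed to leukotriene B4 or joined to glutathione to give the cysteinyl leukotrienes. They act on receptors coupled to G proteins and are best known from myeloid cells, mast cells and eosinophils in inflammation and asthma, while B-lineage cells are known to express parts of the pathway.

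The median log2 value of an array lay between 7.90 and 7.98. Of the 19938 genes, 914 (4.58%) passed at an adjusted p under 0.05 with limma, 459 (2.30%) higher and 455 (2.28%) lower in CRE-ERT2 cells, so that 50.2% of those that passed were higher. This share was 61.4% of 1039 genes after a further quantile normalization, 42.9% of 1260 without the dimmest genes and 38.0% of 1544 with a trended and robust variance. Ptpn6 itself averaged 11.27 ± 0.08 in CRE-ERT2 cells and 11.34 ± 0.08 in ERT2 cells (log2, SD, n = 3 each), with a limma adjusted p of 0.759. Whether its probe set lies in the floxed part is not known here, so this level does not check the labels. Groups are named as labelled.

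Of the pre-B cell genes listed as markers, 14 of 15 were measured, among them the genes that define the stage. Of the 14, 2 rose, 2 fell and 10 did not pass (28.6% passed against 4.58% of all genes). In all, 6 of the 14 had an unadjusted limma p under 0.05 (42.9% against 16.4% of all genes). The pre-B receptor surrogate light chain gene Igll1 averaged 14.46 ± 0.0049 in CRE-ERT2 cells and 14.40 ± 0.03 in ERT2 cells. The lineage transcription factor gene Ebf1 averaged 13.71 ± 0.03 in CRE-ERT2 cells and 13.69 ± 0.08 in ERT2 cells, and Pax5 12.57 ± 0.03 in CRE-ERT2 cells and 12.57 ± 0.08 in ERT2 cells (SD, n = 3 each). Dntt, the terminal transferase of antigen receptor joining (log2 difference 0.48 ± 0.08, SE), and Cd22, an inhibitory receptor (0.37 ± 0.09), rose, and Rag2, a recombinase subunit gene (-0.53 ± 0.09), and Il7r, the interleukin-7 receptor gene (-0.43 ± 0.07), fell, with limma adjusted p between 0.00349 and 0.0271. The call of Cd22 was lost without CRE-ERT2 replicate 1 (limma adjusted p 0.101), CRE-ERT2 replicate 3 (0.0590) or ERT2 replicate 1 (0.122), and those of Cd22, Dntt and Rag2 when all probe sets were tested (0.176, 0.0640 and 0.0911).

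The cells were also checked for markers of other cells that use leukotrienes. Of 43 measured markers of myeloid cells, mast cells and basophils, eosinophils, and T and NK cells, 42 did not pass. The 1 that passed makes 2.33%, against 4.58% of all genes. Summed on the linear scale, the 14 myeloid markers came to 2557 to 2610 in CRE-ERT2 cells and 2581 to 2673 in ERT2 cells, and the 11 mast cell and basophil markers to 1025 to 1157 in CRE-ERT2 cells and 976 to 1144 in ERT2 cells. The 7 eosinophil markers came to 924 to 999 in CRE-ERT2 cells and 883 to 977 in ERT2 cells, and the 11 T and NK cell markers to 1668 to 1713 in CRE-ERT2 cells and 1664 to 1811 in ERT2 cells. The ranges of the groups overlapped for each of the 4 lists. Those of the eosinophil list did so although 1 of its markers passed, so such sums can hide a difference of a single marker. The values hold no zeros and no detection calls, so the absence of a marker could not be read. The marker that passed was Il5ra, the interleukin-5 receptor gene, also known from B-1 cells, with 7.65, 7.40 and 7.62 in CRE-ERT2 cells against 7.10, 7.17 and 6.92 in ERT2 cells (log2 difference 0.50 ± 0.09, SE, limma adjusted p 0.00671). Its call was lost without CRE-ERT2 replicate 3 (limma adjusted p 0.0571) or when all probe sets were tested (0.108). Among the markers with the smallest p of the other lists, the lysozyme gene Lyz2 differed by -0.22 ± 0.09 and the macrophage gene Adgre1 by -0.13 ± 0.07, the mast cell protease genes Cpa3 by 0.17 ± 0.08 and Tpsab1 by -0.12 ± 0.10, the eosinophil ribonuclease gene Ear6 by -0.07 ± 0.09, and the NK and T cell genes Klrb1c by -0.17 ± 0.09 and Cd3d by -0.16 ± 0.09 (log2, SE). None of these passed, with limma adjusted p from 0.200 to 0.827.

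Cysltr1 encodes the receptor with the higher affinity for leukotriene D4 and is the target of the asthma drug montelukast. Its log2 expression was 6.75, 6.68 and 6.99 on the CRE-ERT2 arrays, against 9.37, 9.36 and 9.10 on the ERT2 arrays. All 3 CRE-ERT2 arrays were low and all 3 ERT2 arrays high, and the lowest ERT2 array stood 2.11 above the highest CRE-ERT2 array. The range within a group was 0.32 among CRE-ERT2 arrays and 0.26 among ERT2 arrays. The means were 6.81 ± 0.17 in CRE-ERT2 cells and 9.27 ± 0.15 in ERT2 cells (SD, n = 3 each), a log2 difference of -2.47 ± 0.10 (SE). On the linear scale CRE-ERT2 cells had 0.181 of the level in ERT2 cells. Only 1 of the 19938 genes, the tetraspanin gene Tspan6, had a lower log2 difference, and 18 genes were lower by 1 or more. The array values of genes near background are compressed, so the ratio may understate the difference. In a bulk sample, fewer cells that express Cysltr1 and less of its RNA per cell cannot be told apart.

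Cysltr2 encodes the other cysteinyl leukotriene receptor, known from heart, endothelium and eosinophils. Its log2 values were 4.56, 4.69 and 4.64 in CRE-ERT2 cells and 4.56, 4.43 and 4.51 in ERT2 cells. The groups overlapped at their edges, and the difference of 0.13 ± 0.07 (SE) had a 95% confidence interval from -0.03 to 0.29 and did not pass (limma adjusted p 0.446). As a ratio of CRE-ERT2 to ERT2 cells the interval ran from 0.978 to 1.22. Its mean level stood at the 2.36 percentile of all genes and was not shown to be above background, so this interval bounds the array value and not the change of the RNA.

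**Figure D1:**
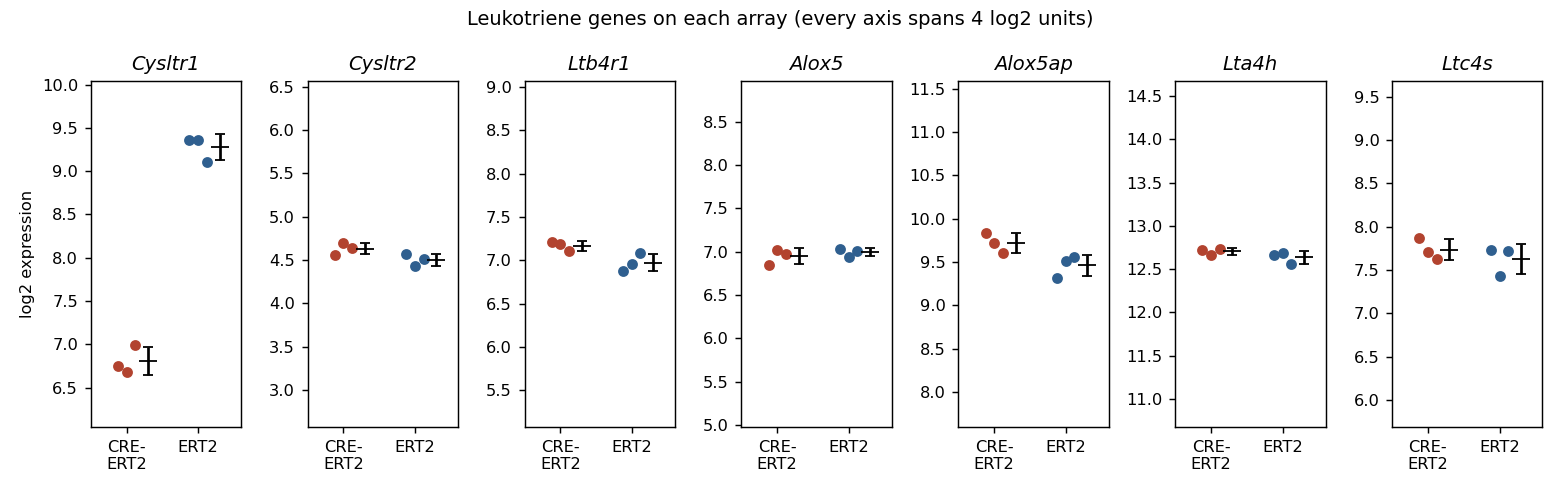
Log2 expression of the 7 measured leukotriene genes (vertical axes, each spanning 4 log2 units) on the 3 CRE-ERT2 arrays (red) and the 3 ERT2 arrays (blue), with the mean and SD of each group beside the points. Cysltr1 averaged 6.81 in CRE-ERT2 cells and 9.27 in ERT2 cells, and for the other 6 genes the group means differed by at most 0.26.

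Ltb4r1 encodes BLT1, the high-affinity receptor of leukotriene B4, which draws leukocytes to sites of inflammation. Its log2 values were 7.21, 7.19 and 7.10 in CRE-ERT2 cells and 6.88, 6.96 and 7.08 in ERT2 cells. All CRE-ERT2 arrays were above all ERT2 arrays, by as little as 0.02 between the nearest pair. The difference was 0.19 ± 0.08 (SE), with an interval from 0.02 to 0.36, and it did not pass after adjustment over all genes (limma adjusted p 0.223). The groups failed to overlap for 22.5% of all genes, and for 6.92% with CRE-ERT2 on the higher side. The gene of the low-affinity receptor BLT2, Ltb4r2, lies close to Ltb4r1 on the same chromosome in the RefSeq table.

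Alox5 encodes 5-lipoxygenase itself, the enzyme that starts leukotriene synthesis. Its log2 values were 6.84, 7.02 and 6.98 in CRE-ERT2 cells and 7.03, 6.94 and 7.01 in ERT2 cells. The groups overlapped, and the difference of -0.05 ± 0.08 (SE) had an interval from -0.21 to 0.12 (limma adjusted p 0.860). Without 1 of the arrays its sign could turn, with differences from -0.09 to 0.0034.

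Start-site sequences are shown for Alox5 and Ltb4r1 because these are the members whose windows hold a GC box, an element that binds SP1 and is well known from the human ALOX5 promoter. Windows of 250 bases before to 50 bases after the start, from RefSeq on GRCm38.p6, were at hand for 5 of the 8 members, namely Cysltr2, Ltb4r1, Alox5, Lta4h and Ltc4s. The letters GGGCGG, searched on both strands and printed in capitals in the sequences, occurred in 2 of the 5 windows, beginning 35 bases before the start of Alox5 (chr6:116461129-116461428, minus strand) and 31 bases before that of Ltb4r1 (chr14:55765712-55766011, plus strand, where they read on the other strand). Of all 32851 windows of the same length, 35.7% held these letters. The letters TTCNNNGAA, a core read by STAT factors and searched in the same way, occurred in 0 of the 5 windows and in 8.30% of all windows. A match is a description of the letters and not a bound site.
Alox5: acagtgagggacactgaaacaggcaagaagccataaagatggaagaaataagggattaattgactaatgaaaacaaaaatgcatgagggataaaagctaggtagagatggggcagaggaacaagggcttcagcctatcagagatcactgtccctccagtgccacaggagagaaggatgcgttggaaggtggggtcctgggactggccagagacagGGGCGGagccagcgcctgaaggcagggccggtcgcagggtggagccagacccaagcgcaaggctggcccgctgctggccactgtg
Ltb4r1: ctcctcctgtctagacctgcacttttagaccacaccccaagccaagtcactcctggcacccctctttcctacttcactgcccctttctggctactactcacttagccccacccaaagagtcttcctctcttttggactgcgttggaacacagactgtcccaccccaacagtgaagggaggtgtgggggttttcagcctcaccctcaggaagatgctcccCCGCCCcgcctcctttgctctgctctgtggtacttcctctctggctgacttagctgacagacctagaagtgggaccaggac

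Alox5ap encodes FLAP, the membrane protein that hands arachidonic acid to 5-lipoxygenase. Its log2 values were 9.83, 9.72 and 9.61 in CRE-ERT2 cells and 9.32, 9.51 and 9.55 in ERT2 cells. The groups did not overlap, with 0.06 between the nearest arrays. The difference of 0.26 ± 0.09 (SE), with an interval from 0.07 to 0.45, was the largest among the synthesis enzymes and did not pass (limma adjusted p 0.126).

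Lta4h encodes leukotriene A4 hydrolase, which makes leukotriene B4 and is expressed widely. Its log2 values were 12.72, 12.66 and 12.74 in CRE-ERT2 cells and 12.67, 12.69 and 12.55 in ERT2 cells. The groups overlapped, with a difference of 0.07 ± 0.07 (SE), an interval from -0.09 to 0.23 and a limma adjusted p of 0.741. Ltc4s encodes leukotriene C4 synthase, which joins leukotriene A4 to glutathione. It had 7.87, 7.71 and 7.62 in CRE-ERT2 cells against 7.73, 7.43 and 7.72 in ERT2 cells. Here too the groups overlapped, and the difference was 0.11 ± 0.10 (SE), with an interval from -0.10 to 0.32 and a limma adjusted p of 0.692.

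Beside Cysltr1, then, 0 of 6 measured leukotriene genes passed with limma, where 4.58% of all genes did, and 2 of them, Alox5ap and Ltb4r1, had an unadjusted p under 0.05, as did 16.4% of all genes. Their median log2 difference was 0.12, against -0.03 over all genes tested. The count was 0 under each alternative run, though Cysltr2, Ltb4r1 and Alox5 were not tested when the dimmest genes were left out. The upper limits of the intervals of the 6 genes lay at most at a ratio of 1.36 and the lower limits at least at 0.864. These limits are of array values, which are compressed near background, so for dim genes larger changes of the RNA are not excluded.

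**Figure D2:**
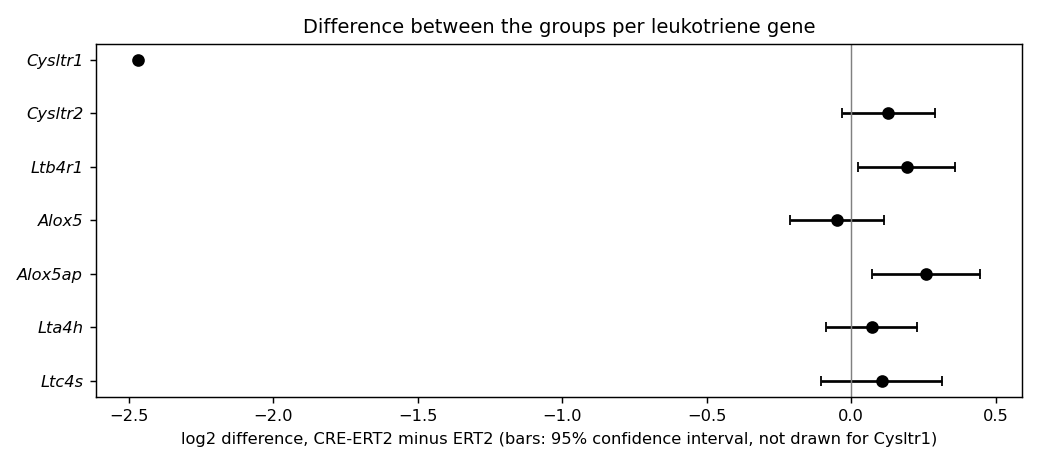
Log2 difference, CRE-ERT2 minus ERT2 (horizontal axis), of each measured leukotriene gene (rows), with bars for the 95% confidence interval from limma, not drawn for Cysltr1. Cysltr1 lies at -2.47 and the other 6 genes between -0.05 and 0.26.

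Genes that make, move and break down leukotrienes outside the 8 were described next, 14 of 15 listed being measured. Of these, 3 rose, 1 fell and 10 did not pass, which is 28.6% against 4.58% of all genes, with a median log2 difference of 0.01. Mgst2, a microsomal glutathione transferase that can also make leukotriene C4, had 11.07, 10.91 and 10.88 in CRE-ERT2 cells against 10.13, 10.56 and 10.43 in ERT2 cells. All CRE-ERT2 arrays were above all ERT2 arrays, among which replicate 1 was the lowest, and Mgst2 rose 1.49-fold (log2 difference 0.58 ± 0.10, SE, limma adjusted p 0.00559). Cotl1 encodes coactosin-like protein, which binds 5-lipoxygenase. It had 10.50, 10.42 and 10.44 in CRE-ERT2 cells against 9.99, 10.03 and 10.09 in ERT2 cells, and rose 1.33-fold (0.42 ± 0.07, limma adjusted p 0.00405).

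Cyp4f18 encodes a cytochrome P450 that oxidises leukotriene B4 in mouse neutrophils. It had 13.41, 13.35 and 13.38 in CRE-ERT2 cells against 13.01, 13.17 and 13.02 in ERT2 cells, and rose 1.24-fold (log2 difference 0.31 ± 0.07, SE, limma adjusted p 0.0319). It has close relatives whose transcripts its probe set could in part read, among them Cyp4f14 (0.22 ± 0.08), which did not pass. Abcc1 encodes the transporter MRP1, which exports leukotriene C4. It had 9.996, 10.081 and 9.999 in CRE-ERT2 cells against 10.398, 10.300 and 10.246 in ERT2 cells, and fell to a ratio of 0.818 (-0.29 ± 0.07, limma adjusted p 0.0435).

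The calls of Mgst2 and Cotl1 were kept whichever array was left out, though that of Mgst2 was lost when all probe sets were tested (limma adjusted p 0.115), as were those of Cyp4f18 (0.138) and Abcc1 (0.164). Cyp4f18 did not pass without CRE-ERT2 replicate 1 (limma adjusted p 0.0996), 2 (0.0831) or 3 (0.130) or ERT2 replicate 1 (0.109) or 3 (0.0768), nor with arrays centred on their medians (0.0512), and Abcc1 did not without CRE-ERT2 replicate 1 (0.122), 2 (0.0879) or 3 (0.183) or ERT2 replicate 1 (0.140) or 2 (0.0761), nor after a further quantile normalization (0.0795). The remaining receptors known to answer to these lipids or to their relatives, Oxgr1 (-0.02 ± 0.11) and Gpr17 (0.01 ± 0.08), did not pass, named here after their values were seen.

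Of 32 other eicosanoid genes, which release arachidonic acid or make, sense and degrade prostaglandins, thromboxane and other lipoxygenase products, 29 were measured. None rose, 2 fell and 27 did not pass (6.90% passed against 4.58% of all genes), with a median log2 difference of -0.03. In all, 4 of the 29 had an unadjusted p under 0.05 (13.8% against 16.4% of all genes). Pla2g4a encodes the cytosolic phospholipase A2 that frees arachidonic acid from membranes, upstream of 5-lipoxygenase. It had 10.16, 9.89 and 10.05 in CRE-ERT2 cells against 10.62, 10.46 and 10.37 in ERT2 cells. The groups did not overlap, and Pla2g4a fell to a ratio of 0.733 (log2 difference -0.45 ± 0.09, SE, limma adjusted p 0.0121). Ptgr1 encodes a reductase that inactivates leukotriene B4 and prostaglandins. It had 10.82, 10.76 and 10.71 in CRE-ERT2 cells against 11.23, 11.13 and 11.18 in ERT2 cells, and fell to a ratio of 0.749 (-0.42 ± 0.07, limma adjusted p 0.00429), with its call kept in every alternative run for single genes. The call of Pla2g4a was lost without CRE-ERT2 replicate 2 (limma adjusted p 0.0541), CRE-ERT2 replicate 3 (0.0654) or ERT2 replicate 1 (0.0714) and when all probe sets were tested (0.135). The inducible cyclooxygenase gene Ptgs2, named here after its value was seen, differed by -0.08 ± 0.08 and did not pass (limma adjusted p 0.703).

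**Figure D3:**
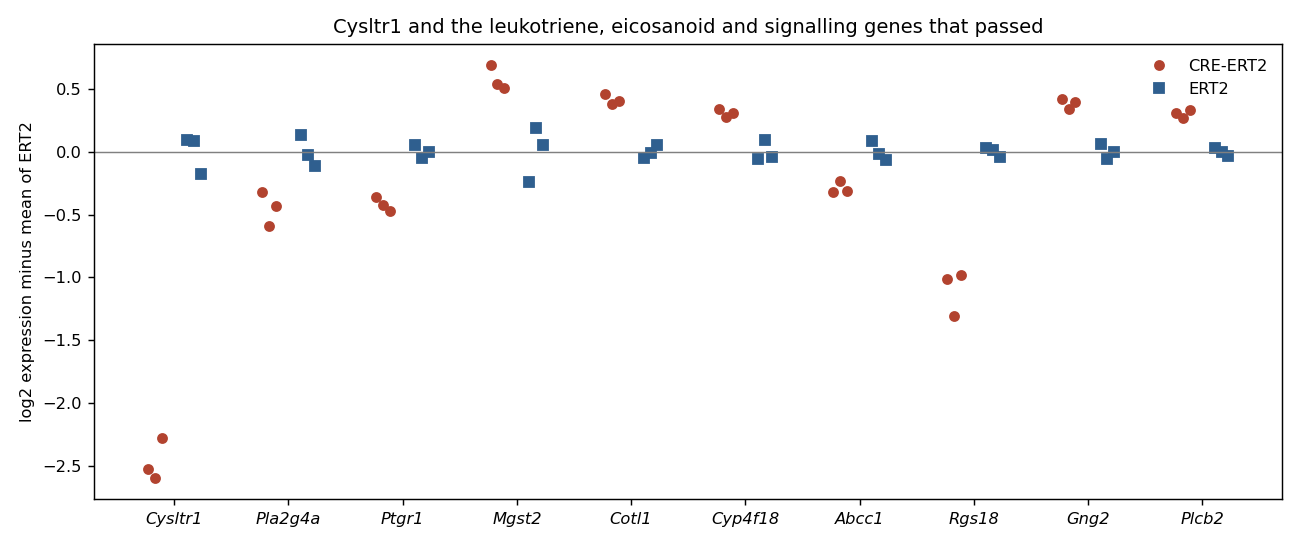
Log2 expression minus the mean of the ERT2 arrays (vertical axis) of Cysltr1 and of the leukotriene, eicosanoid and G protein signalling genes that passed, with the 3 CRE-ERT2 arrays as red circles and the 3 ERT2 arrays as blue squares. Among the genes beside Cysltr1, which lies lowest, Rgs18 shows the largest difference (-1.10). The genes beside Cysltr1 were chosen because they passed in this same comparison, so that their groups stand apart is no separate result.

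Leukotriene receptors signal through the G proteins Gq and Gi, phospholipase C beta and protein kinase C, and regulators of G protein signalling (RGS proteins) switch them off. Of 32 listed genes of this machinery, 29 were measured. Of these, 26 did not pass, 2 rose and 1 fell (10.3% against 4.58% of all genes), with a median log2 difference of -0.0033. Rgs18, which speeds up the shut-off of Gi and Gq and is known from platelets and bone marrow, had 11.16, 10.87 and 11.20 in CRE-ERT2 cells against 12.20, 12.19 and 12.14 in ERT2 cells. The ERT2 arrays lay close together and all CRE-ERT2 arrays were well below them, and Rgs18 fell to a ratio of 0.466 (-1.10 ± 0.09, SE, limma adjusted p 1.26e-05). Gng2, a G protein gamma subunit gene, had 10.58, 10.51 and 10.56 in CRE-ERT2 cells against 10.22, 10.11 and 10.16 in ERT2 cells, and rose 1.31-fold (0.39 ± 0.07, limma adjusted p 0.00688).

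Plcb2, a phospholipase C gene of blood cells, had 10.67, 10.63 and 10.70 in CRE-ERT2 cells against 10.39, 10.36 and 10.33 in ERT2 cells, and rose 1.24-fold (0.31 ± 0.07, SE, limma adjusted p 0.0246). Its groups stood apart with a small spread in each, yet its call was lost without CRE-ERT2 replicate 1 (limma adjusted p 0.0712), 2 (0.0687) or 3 (0.124) or ERT2 replicate 2 (0.0539) or 3 (0.0632), and those of Plcb2 (0.0981) and Gng2 (0.0601) when all probe sets were tested. The alpha subunit gene Gnaq, to which Cysltr1 couples, differed by -0.03 ± 0.07 and Gnai2 by 0.03 ± 0.08, and the receptor-silencing arrestin genes Arrb1 and Arrb2 by -0.20 ± 0.07 and -0.20 ± 0.09. These 4, named after their values were seen, did not pass (limma adjusted p from 0.173 to 0.938).

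Other receptors for chemoattractants, nucleotides and lipids were taken for comparison with Cysltr1, 25 of 28 listed being measured. Of these, 5 rose, 1 fell and 19 did not pass (24.0% against 4.58% of all genes), with a median log2 difference of 0.10. Ccr7, the receptor that guides lymphocytes to lymph nodes, rose 1.93-fold (log2 difference 0.95 ± 0.07, SE) and S1pr3, a sphingosine 1-phosphate receptor gene, 1.88-fold (0.91 ± 0.07). Cxcr5, the receptor that guides B cells to follicles, rose 1.55-fold (0.63 ± 0.08) and the nucleotide-sugar receptor gene P2ry14 1.46-fold (0.54 ± 0.08). Outside the rule for named genes, and named after their values were seen, Ptafr, the receptor of the lipid mediator platelet-activating factor, rose (0.40 ± 0.09) and S1pr1, the sphingosine 1-phosphate receptor that lets lymphocytes leave tissues, fell (-0.33 ± 0.08). Limma adjusted p of the 6 lay between 6.37e-06 and 0.0256, and testing all probe sets took away the calls of P2ry14 (0.0520), Ptafr (0.150) and S1pr1 (0.131). That of Ptafr was also lost without CRE-ERT2 replicate 1 (limma adjusted p 0.0521) or 2 (0.0904) or ERT2 replicate 1 (0.0951), and that of S1pr1 without CRE-ERT2 replicate 1 (0.0619), 2 (0.100) or 3 (0.114) or ERT2 replicate 2 (0.0780) or 3 (0.0562) and after a further quantile normalization (0.0627).

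**Figure D4:**
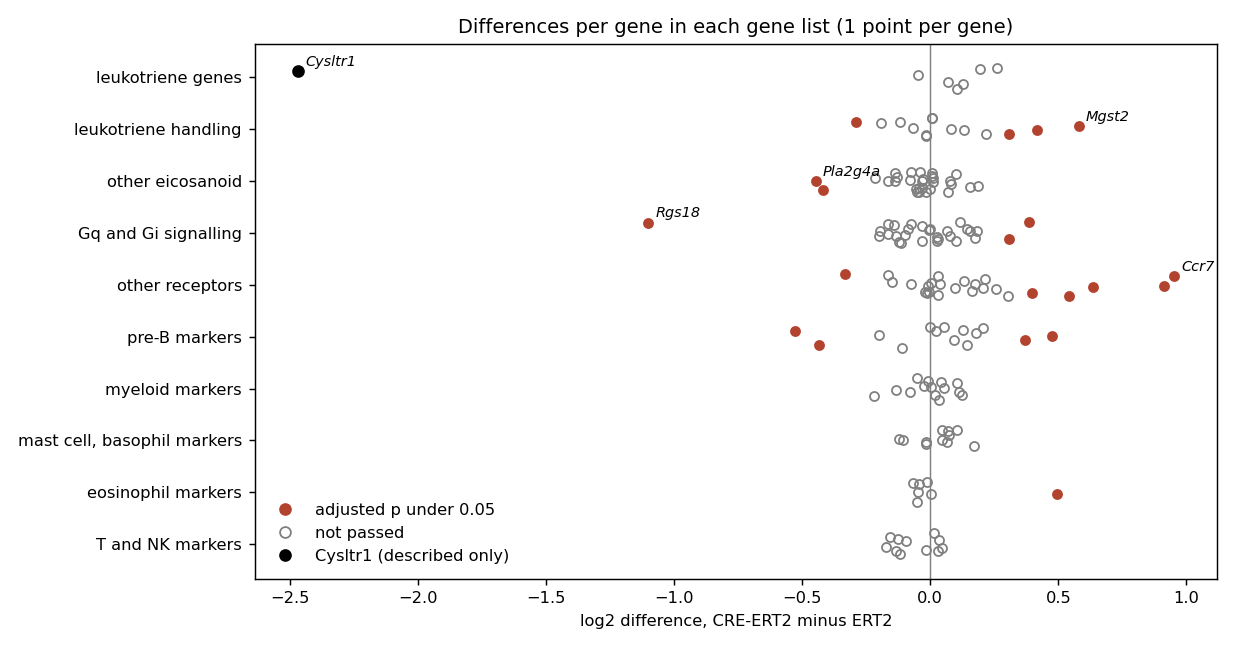
Log2 difference, CRE-ERT2 minus ERT2 (horizontal axis), of each measured gene in the 10 gene lists (rows, 1 point per gene, shifted up or down at random within a row), with red points for an adjusted p under 0.05, open points for genes that did not pass and a black point for Cysltr1, which is given as a description. Cysltr1 lies farther from 0 than any other gene of these lists, followed by Rgs18 at -1.10.

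Genes on either side of Cysltr1 on the X chromosome differed between -0.37 and 0.91, against -2.47 for Cysltr1 itself. Of the 5 measured genes on each side, in the order of the RefSeq table of GRCm38.p6, 8 did not pass, 1 rose and 1 fell (20.0% against 4.58% of all genes). The 2 that passed were the fourth and the third before it in that order. Taf9b, a subunit gene of the general transcription factor TFIID, had 9.07, 8.70 and 8.98 in CRE-ERT2 cells against 7.88, 8.25 and 7.88 in ERT2 cells, and rose 1.88-fold (log2 difference 0.91 ± 0.12, SE, limma adjusted p 0.000392). Pgk1, which encodes the glycolytic enzyme phosphoglycerate kinase, had 13.06, 13.08 and 13.01 in CRE-ERT2 cells against 13.40, 13.43 and 13.43 in ERT2 cells, and fell to a ratio of 0.773 (-0.37 ± 0.07, limma adjusted p 0.00709). The call of Pgk1 was lost without CRE-ERT2 replicate 3 (limma adjusted p 0.0546) or when all probe sets were tested (0.0525), and further probe sets with its name, which hold the same values as each other (-0.36), may read its processed copies. The genes directly beside Cysltr1, Fndc3c1 (-0.04 ± 0.09) and Gm5127 (-0.32 ± 0.10), did not pass (limma adjusted p 0.906 and 0.0935). Among the neighbours was also P2ry10, a receptor gene of the comparison list (0.21 ± 0.09, limma adjusted p 0.267).

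**Figure D5:**
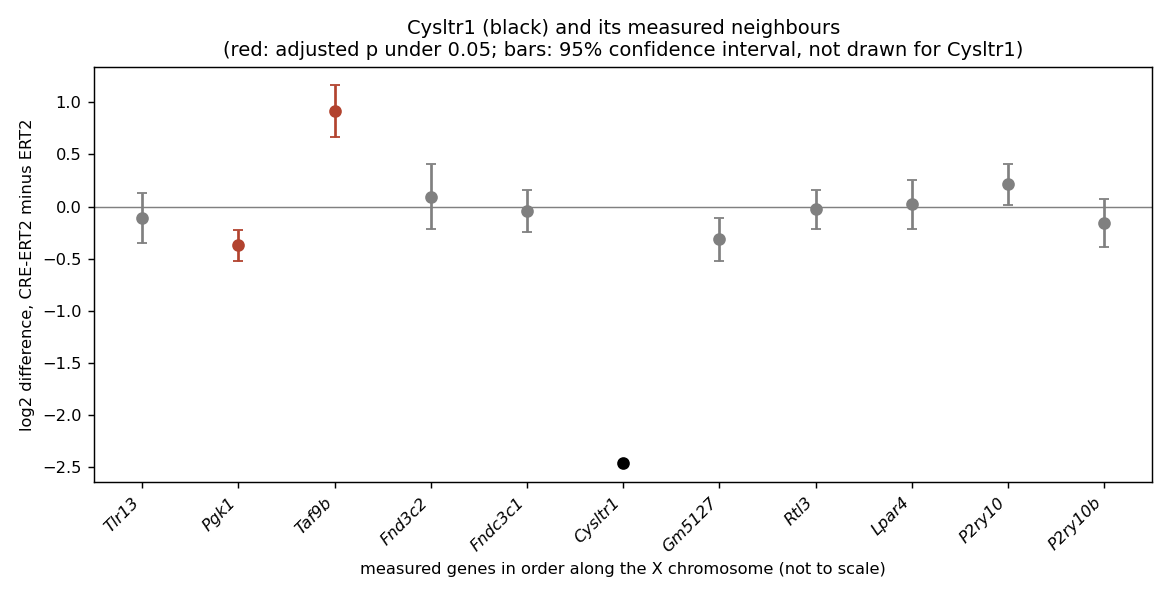
Log2 difference, CRE-ERT2 minus ERT2 (vertical axis), of Cysltr1 (black) and the 5 measured genes on each side of it in their order along the X chromosome (horizontal axis, not to scale), with bars for the 95% confidence interval, not drawn for Cysltr1, and red for an adjusted p under 0.05. Cysltr1 lies at -2.47, and its neighbours lie between -0.37 and 0.91.

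The pattern of Cysltr1 over the 6 arrays was set against that of every other gene by the root mean square difference of log2 values, after each gene's own mean was taken off. The 6 genes with the smallest distance were the mitochondrial adenylate kinase gene Ak4 (0.22), Bmpr1a, the gene of a receptor for bone morphogenetic proteins (0.54), Slamf7, a SLAM family receptor gene (0.55), the metallothionein genes Mt1 (0.59) and Mt2 (0.59), and Crhbp, which encodes a binding protein of corticotropin-releasing hormone (0.61). Their log2 differences were -2.20 for Ak4, -1.44 for Bmpr1a, -1.42 for Slamf7, -1.37 for Mt1, -1.56 for Mt2 and -1.30 for Crhbp, all smaller in size than that of Cysltr1. Ak4 had 7.25, 7.18 and 7.11 in CRE-ERT2 cells against 9.24, 9.57 and 9.34 in ERT2 cells, and its further probe set differed by -0.44. Mt2 had 9.52, 9.33 and 9.58 in CRE-ERT2 cells against 10.40, 11.52 and 11.19 in ERT2 cells. Its spread in ERT2 cells was wide (SD 0.57). With 3 arrays a group, this likeness rests mostly on the difference between the groups, and it was chosen by that difference, so no test is given.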

How the data were processed

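Log2 expression of 35556 probe sets on 6 Affymetrix arrays was used as deposited by the authors. The submitters' processing notes name RMA (background correction, normalization and summary of probes) and Partek 6.5 but not what each did, and the log2 scale was read from the range of the values. Detection calls, scan dates and the array's genome build were not used here. Signal over background and batches are therefore unknown. Precision is limited by the number of arrays. No pair of arrays was a duplicate. The platform annotation gives 1 gene for 21789 probe sets, several for 1621 and none for 12146. Of the former, 21698 were found in the RefSeq gene table (GRCm38.p6), and probe sets without a single gene were left out of gene tests.

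CRE-ERT2 was compared with ERT2 with lmFit and eBayes of limma 3.58.1 (R 4.3.3), two-sided and with no term beside the group, over 19938 genes, with Benjamini-Hochberg adjustment over all of them and a threshold of 0.05. No filter on dim genes was set. The fit was tested on simulated data. The members, gene lists and tests were chosen with earlier results of these data known. Named were the 8 members, Ptpn6, up to 4 genes of each list that passed with the largest change (or up to 2 with the smallest p), the 6 genes most like Cysltr1, and its neighbours that passed. Alternatives were other scalings, filters, probe set rules, variance models, a replicate block, minimum changes and leaving out each array.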

Additional observations from a re-analysis of the deposited data

How the results depend on the processing

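The log2 difference of Cysltr1 stayed between -2.56 and -2.40 when each array was left out and between -2.47 and -2.43 in the other settings. Of the other 6 leukotriene genes, 0 passed in any setting in which they were tested. Cysltr2, Ltb4r1 and Alox5 were among the dimmest genes and were not tested when these were left out. No named gene that passed changed direction; 13 of them passed in every setting run for single genes and 15 lost the call in at least 1. A minimum log2 change of 1 was passed by only 9 of all 19938 genes. The counts were then 0 for the leukotriene handling, other eicosanoid, signalling, receptor, pre-B marker, other cell marker and neighbour lists. A minimum change of 1.2-fold was passed by 181 of all genes. The counts were 0 for handling, eicosanoid, pre-B marker and other cell marker genes, 1 for signalling genes (Rgs18), 3 for receptors and 1 for neighbours. With all probe sets tested 254 genes passed. The counts were 1 for handling, 1 for eicosanoid, 1 for signalling, 3 for receptors, 1 for pre-B markers, 0 for other cell markers and 1 for neighbours. With the dimmest genes left out (a share of 0.333), Il5ra among them, 1260 of 13292 genes passed and 0 other cell markers. Leaving out each array gave 453 to 979 genes over the whole series. Among them were 2 to 3 handling genes, 1 to 2 eicosanoid genes, 2 to 3 signalling genes, 4 to 5 receptors, 3 to 4 pre-B markers, 1 to 3 neighbours and 0 to 1 other cell markers. The highest counts in any setting were 3 eicosanoid genes, 4 signalling genes, 8 receptors and 6 pre-B markers. The number over all genes moved with the setting as well, up to 1544 with a trended and robust variance. The neighbour and marker counts and the settings for Ptafr and S1pr1 were added to the alternatives after seeing the data.

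With the replicate block 2 handling genes passed, Mgst2 and Cotl1, and the calls of Abcc1 (limma adjusted p 0.117), Cyp4f18 (0.0973), Plcb2 (0.0874), S1pr1 (0.0781) and Cd22 (0.0721) were lost. Whether the numbers pair the samples could not be decided from the arrays. Deviations of same-numbered arrays from their group means correlated at -0.11, -0.37 and -0.07. No CRE-ERT2 array correlated best with its own number (CRE-ERT2 replicate 1 with ERT2 replicate 2 at 0.45, 2 with 3 at 0.40 and 3 with 1 at 0.18). Deviations from the mean of only 3 arrays depend on one another, so these correlations do not settle it. Over all genes, where 914 passed, 589 passed with the block, 1544 with a trended and robust variance, 254 with all probe sets tested, 181 and 9 with minimum changes of 1.2-fold and of 1 on the log2 scale, 560 without ERT2 replicate 1, 574 without CRE-ERT2 replicate 2 and 453 without CRE-ERT2 replicate 3. The cause was not tested. Over all 14 settings run for single genes, limma adjusted p ran from 0.0198 to 0.183 for Abcc1, from 0.000463 to 0.138 for Cyp4f18, from 0.00198 to 0.135 for Pla2g4a, from 0.00476 to 0.124 for Plcb2, from 0.000368 to 0.115 for Mgst2, from 0.0123 to 0.176 for Cd22 and from 0.0561 to 0.358 for Alox5ap. Signal over background is unknown, so small differences of dim genes may be missed.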

Other observations

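Cysltr1 and Tspan6, the pair of genes with the lowest log2 differences, both lie on the X chromosome. Of 742 X-linked genes tested, Cysltr1 and Tspan6 among them, 11 rose and 23 fell with limma, which is 4.58% against 4.58% of all genes, and 3.10% fell against 2.28% of all genes. Their median log2 difference was -0.03, as over all genes.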
